A study of Mus musculus with 6 samples.

Results

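Expression of 49 genes, nearly all of them from the proximal end of mouse chromosome 5, was compared in bone marrow progenitors between C57B/L6 mice and the strain B.D(Chr5). The genes were chosen by position, from Akap9 and its neighbours to Dnajb6, except that AI506816 was added by name with its strain difference already known. The other members too were chosen with earlier results of these data known. In the RefSeq annotation of GRCm38.p6, 48 of the 49 lay on chromosome 5 and 1, Samd9l, lay on chromosome 6. Probe sets named for 43 of the 49 were found, 114 in all, and 84 of these, for 39 genes, were bright enough to be tested. No probe set was named here for Magi2, Rsbn1l, Nub1, Xrcc2, Actr3b or Nom1. In the whole table, 10743 genes had a tested probe set with a single gene name.

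The cells were lineage negative bone marrow cells of young adult female mice aged 6 to 16 weeks. Such cells have lost those carrying surface markers of mature blood lineages, which leaves haematopoietic stem and progenitor cells enriched. C57B/L6 and B.D(Chr5) had 3 biological replicates each, 1 Affymetrix array per replicate and no treatment. The labels do not say which segment of chromosome 5 distinguishes B.D(Chr5), nor how many mice gave each replicate, and the p-values therefore reflect only how much these 6 samples vary. In bulk RNA, fewer cells of a type and less RNA per cell cannot be told apart.

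The genes share a place on the chromosome and not a function. They include multidrug transporters, which pump foreign compounds and drugs out of stem cells, and DNA replication and repair factors such as Dbf4, the activator of the Cdc7 kinase. Others are histone methyltransferase family members (Kmt2c and Kmt2e), chaperones and proteasome parts (Dnajc2, Dnajb6, Psmc2), enzymes and sensors of lipid metabolism, and signalling scaffolds. A strain that carries a different version of a chromosome segment can differ in the expression of genes within it, which is why neighbouring genes are described together in order.

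Of the 84 tested probe sets, 2 differed between the strains in limma at a Benjamini-Hochberg adjusted p under 0.05, that of AI506816, which was higher in B.D(Chr5), and 1 of 3 for Dnajc2, which was lower. This is 2.38% of the members' tested probe sets, beside 0.182% of all 22518 tested on the array. AI506816 was listed for its difference, and without it and Samd9l, 1 of 82 (1.22%) was called. Over all 84, 45 log2 changes were positive and 39 negative, and 6 (7.14%) were larger than 0.5 in size, beside 3.49% of all tested probe sets. The median was 0.026 on the log2 scale, beside 0.000 over all tested probe sets, and the median size of a change was 0.095 in both. For 77 of the 84 the whole 95% interval of the log2 change lay within 1 of 0, so a change of more than 2-fold was outside those intervals.

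**Figure D1:**
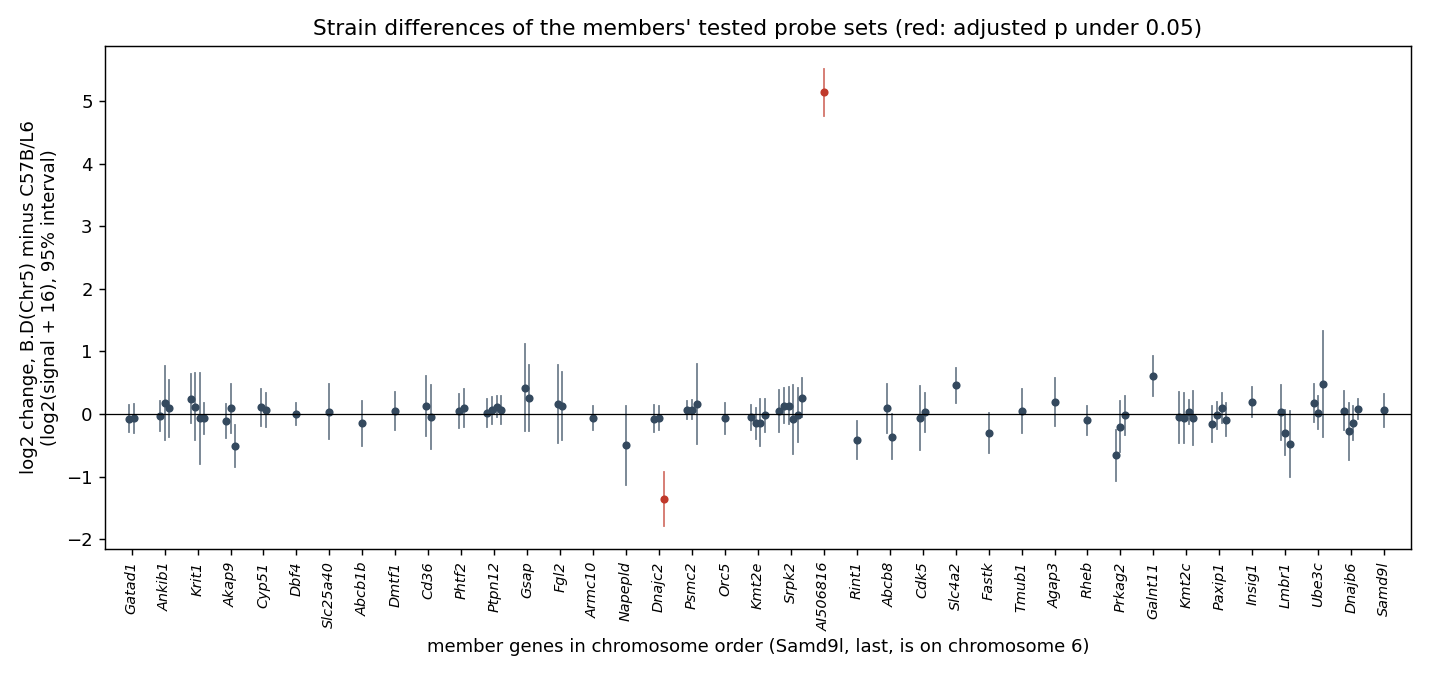
Log2 change from C57B/L6 to B.D(Chr5) (log2(signal + 16), vertical axis) for the 84 tested probe sets, with genes in chromosome order on the horizontal axis; bars are 95% intervals from limma, n = 3 arrays per strain. AI506816 at 5.14 and 1 probe set of Dnajc2 at -1.35 (red) stand away from 0, and the rest lie between -0.65 and 0.61.

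AI506816, annotated as a long non-coding RNA, had signals of 40.8, 41.9 and 32.1 in C57B/L6 and 1630.4, 2316 and 1788 in B.D(Chr5). The strains were far apart on every array, and all 6 signals exceeded the 95th percentile of the bacterial control probe sets, which detect no mouse RNA and lay between 21.8 and 38. On the log2(signal + 16) scale, which understates changes of dim probe sets, the change was 5.14 ± 0.17 (SE, limma adjusted p = 3.74e-07). The gene has a single probe set, so no second one was at hand to compare. The call held in all 15 alternative fits, with log2 changes from 4.26 to 5.60. The gene was listed for this difference in these same data, and it passed the brightness filter through its B.D(Chr5) signals. The p-value and the held calls therefore describe the difference and are not separate evidence for it. Its neighbours in the annotation were Srpk2 on one side and Pus7 and Rint1 on the other.

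Dnajc2 encodes a chaperone that sits on the ribosome. Its called probe set had signals of 212, 235 and 184 in C57B/L6 and 68.9, 81.8 and 66.5 in B.D(Chr5), with no overlap. The log2 change was -1.35 ± 0.19 (SE, limma adjusted p = 0.0298). The call was lost in 5 of the 6 fits that left out 1 array (adjusted p from 0.0522 to 0.277), namely without C57B/L6 replicate 1, 2 or 3 or B.D(Chr5) replicate 1 or 3. The 2 brighter probe sets of the gene read 3840.0 ± 309.9 and 3656 ± 349 on the one, and 1795 ± 47.3 and 1725 ± 115 on the other, in C57B/L6 and B.D(Chr5) (SD, n = 3 each). Their log2 changes were -0.071 and -0.059, with 95% intervals of -0.29 to 0.14 and -0.25 to 0.13 that do not reach the called value. The last probe set stayed below the controls on all arrays. In the platform annotation the called probe set was designed from another source sequence than the bright pair. Probe sequences were not examined here for any gene. Whether the strains differ in sequence under a probe was therefore not tested, for Dnajc2 or for any other member.

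After these, 8 further probe sets had the smallest p-values, and none of them passed the adjusted threshold. Galnt11, an enzyme that starts O-linked sugar chains, read 309, 321 and 409 in C57B/L6 and 588, 485 and 532 in B.D(Chr5). All B.D(Chr5) arrays were higher, with a log2 change of 0.61 and an SE of 0.14 (limma unadjusted p = 0.00198, adjusted p = 0.368). An untested, dim Galnt11 probe set pointed the other way with the strains overlapping. Its log2 change was -0.36 in a fit with no filter on brightness (limma unadjusted p = 0.326). Slc4a2, an exchanger of chloride and bicarbonate, read 485, 402 and 522 against 627, 678 and 641, again with B.D(Chr5) above on every array. Its log2 change was 0.46 ± 0.13 (SE, limma adjusted p = 0.582). Rint1, which acts in traffic between the Golgi and the endoplasmic reticulum, went the other way. Its signals were 319, 359 and 313 in C57B/L6 and 229, 252 and 251 in B.D(Chr5), a log2 change of -0.41 (limma adjusted p = 0.850). On an untested Rint1 probe set the strains overlapped, with a log2 change of -0.15 in the fit with no filter (limma unadjusted p = 0.636). Fastk, a mitochondrial RNA regulator, had 321, 394 and 377 against 261, 295 and 322, where the strains overlapped by a single array. The others, 1 probe set each of Prkag2, Akap9, Abcb8 and Lmbr1, were lower in B.D(Chr5) on every array and are described with the probe sets that disagreed. Of these 10 probe sets, 3 were higher and 7 lower, and the strains did not overlap in 9. Picking by small p favours probe sets without overlap, so the 9 are not separate evidence. Over all tested probe sets 9.38% were without overlap.

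**Figure D2:**
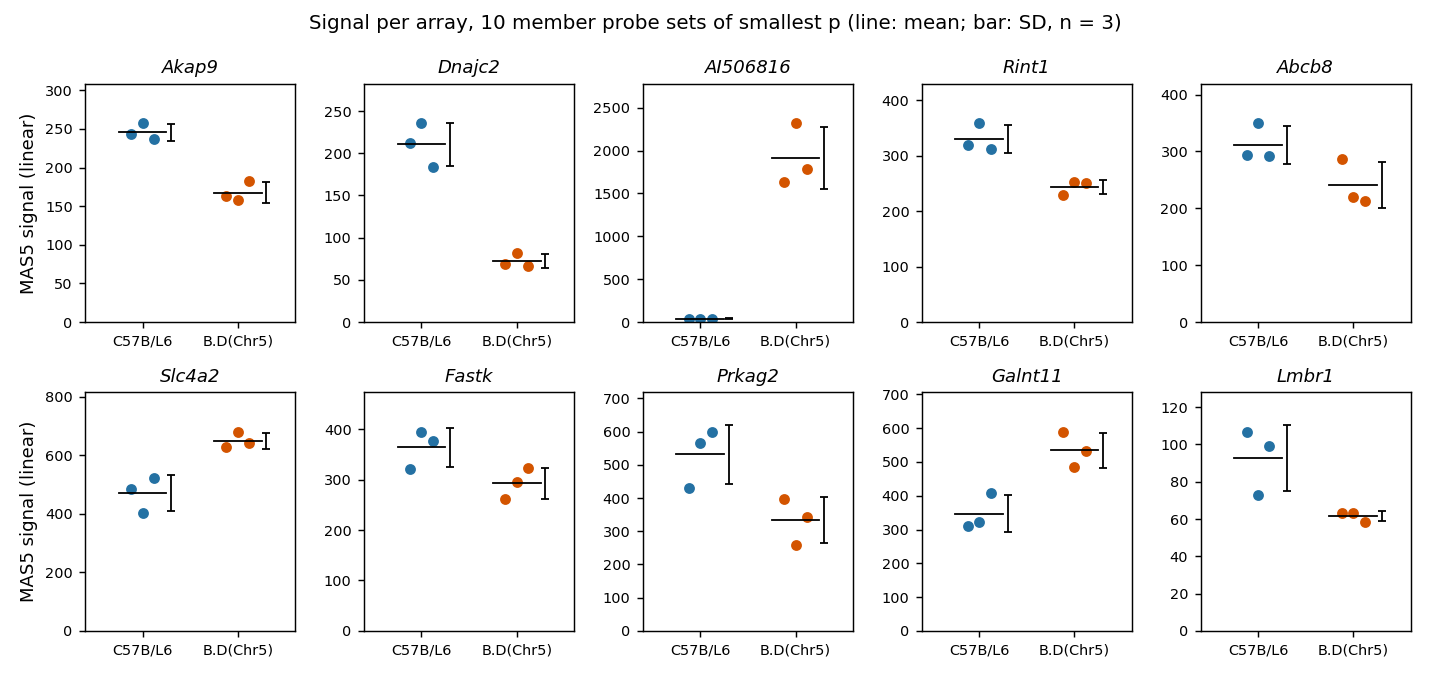
MAS5 signal (linear vertical axis, from 0) on each array for the 10 member probe sets of smallest p, C57B/L6 in blue and B.D(Chr5) in orange; lines are means and bars are SD, n = 3 per strain. The probe sets were picked by small p, which favours separation. The strains do not overlap in 9 of the 10 panels, the exception being Fastk.

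The 300-base promoter windows of AI506816, of Rint1 (lower in B.D(Chr5) on its tested probe set, not called) and of Galnt11 (higher on its tested probe set, not called) are shown as examples. The tested probe sets of these genes separated the strains on every array, as those of other members also did. The windows come from RefSeq on GRCm38.p6, 250 bases before to 50 after the annotated start, and 41 of the 49 members had at least 1 window in that table. The assembly is of C57BL/6J, so the sequences are of the reference strain and not of B.D(Chr5). Capitals mark the GC box, GGGCGG or its complement on the other strand, which was searched for on both strands together with the TATA box (the letters TATAAA) and the CCAAT box.
AI506816, chr5:23712618-23712917, minus strand: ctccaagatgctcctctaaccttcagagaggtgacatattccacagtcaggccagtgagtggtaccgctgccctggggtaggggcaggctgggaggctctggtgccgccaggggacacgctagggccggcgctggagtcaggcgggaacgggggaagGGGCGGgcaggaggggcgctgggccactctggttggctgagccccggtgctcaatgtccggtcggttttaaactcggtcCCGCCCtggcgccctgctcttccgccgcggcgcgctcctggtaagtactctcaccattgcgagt
Rint1, chr5:23787461-23787760, plus strand: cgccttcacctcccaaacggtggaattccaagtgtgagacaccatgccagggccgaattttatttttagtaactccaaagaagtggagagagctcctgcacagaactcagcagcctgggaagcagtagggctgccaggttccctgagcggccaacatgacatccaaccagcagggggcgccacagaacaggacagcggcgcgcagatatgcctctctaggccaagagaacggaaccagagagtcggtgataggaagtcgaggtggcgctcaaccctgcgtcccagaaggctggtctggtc
Galnt11, the first of its 2 windows, chr5:25222622-25222921, plus strand: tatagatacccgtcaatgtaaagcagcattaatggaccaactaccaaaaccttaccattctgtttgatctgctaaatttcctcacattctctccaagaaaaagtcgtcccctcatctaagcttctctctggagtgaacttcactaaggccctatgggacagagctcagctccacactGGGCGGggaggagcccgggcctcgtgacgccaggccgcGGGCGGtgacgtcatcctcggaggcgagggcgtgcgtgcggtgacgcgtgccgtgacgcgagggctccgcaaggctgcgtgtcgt

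AI506816 had 2 GC boxes, 21 CpG dinucleotides and a GC content of 66.3%. The window of Rint1 had 13 CpG dinucleotides, a GC content of 57.3% and 0 GC boxes, and that of Galnt11 had 23, 57% and 2. The Galnt11 window not printed had 7 CpG dinucleotides, 43% GC and 0 GC boxes. Windows of Slc4a2, also higher in B.D(Chr5), had 0 GC boxes, and those of Prkag2, lower on 1 probe set without overlap, had 1, 0 and 2. Whether GC boxes go with the direction of change was not tested. Over all 32851 windows the median was 7 CpG dinucleotides and 52.7% GC. A GC box was present in 35.7% of them, a CCAAT box in 37.4% and a TATA box in 13.6%. None of the 3 printed windows held a TATA box or a CCAAT box by this search. A match of letters describes the window and does not show that a factor binds there.

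Agreement between probe sets could be examined in the 22 genes with 2 or more tested probe sets. In 11 of them all probe sets had log2 changes of 1 sign, and in the other 11 the signs were mixed. The largest and smallest change of a gene differed by under 0.25 in 12 of the 22, by over 0.5 in 4 and by over 1 in Dnajc2 alone. Ptpn12, a tyrosine phosphatase that acts on the cytoskeleton, had 4 probe sets between 0.019 and 0.12. Kmt2e, a chromatin regulator that blood stem cells need, had 4 tested ones between -0.15 and -0.018, and Kmt2c, a methyltransferase at enhancers, had 4 between -0.065 and 0.031. An untested Kmt2e probe set stood apart from these, at 70.0, 64.2 and 52.1 in C57B/L6 and 23.2, 35.6 and 25.8 in B.D(Chr5), without overlap. Its log2 change was -0.83 in a fit with no filter on brightness (unadjusted p = 0.0169, limma adjusted p = 0.921). In each of the tested Kmt2c and Kmt2e probe sets, replicate 3 read highest within both strains, as for the Kmt2c probe set with 1154, 1076 and 1592 in C57B/L6 and 1059, 1066 and 1532 in B.D(Chr5).

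In the other 3 genes with a gap over 0.5, some probe sets separated the strains and others did not. For Prkag2, a regulatory subunit of the energy sensor AMPK, a probe set read 431, 564 and 598 in C57B/L6 and 398, 260 and 342 in B.D(Chr5), without overlap, and had a log2 change of -0.65 ± 0.18 (SE, limma adjusted p = 0.593). The brightest Prkag2 probe set changed by -0.019 and the remaining one by -0.20. For Akap9, a scaffold for protein kinase A at the centrosome and Golgi, a probe set read 243, 257 and 236 against 163, 158 and 183, a log2 change of -0.51 ± 0.15 (SE, limma adjusted p = 0.701). The brightest Akap9 probe set changed by -0.11 and the dimmest tested one by 0.092. A further Akap9 probe set, too dim to be tested, read 56.2, 55.0 and 92.3 against 22.1, 28.4 and 24.2. Its B.D(Chr5) signals were all at or below the bacterial controls, which by mean signals puts it at least 2.16-fold lower there. In a fit with no filter on brightness it was not called (unadjusted p = 0.00782, limma adjusted p = 0.790). For Lmbr1, a membrane protein gene whose introns hold a limb enhancer of Shh, 2 of 3 tested probe sets were lower without overlap, with log2 changes of -0.30 and -0.48, and the remaining one changed by 0.027. None of these values passed the adjusted threshold.

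**Figure D3:**
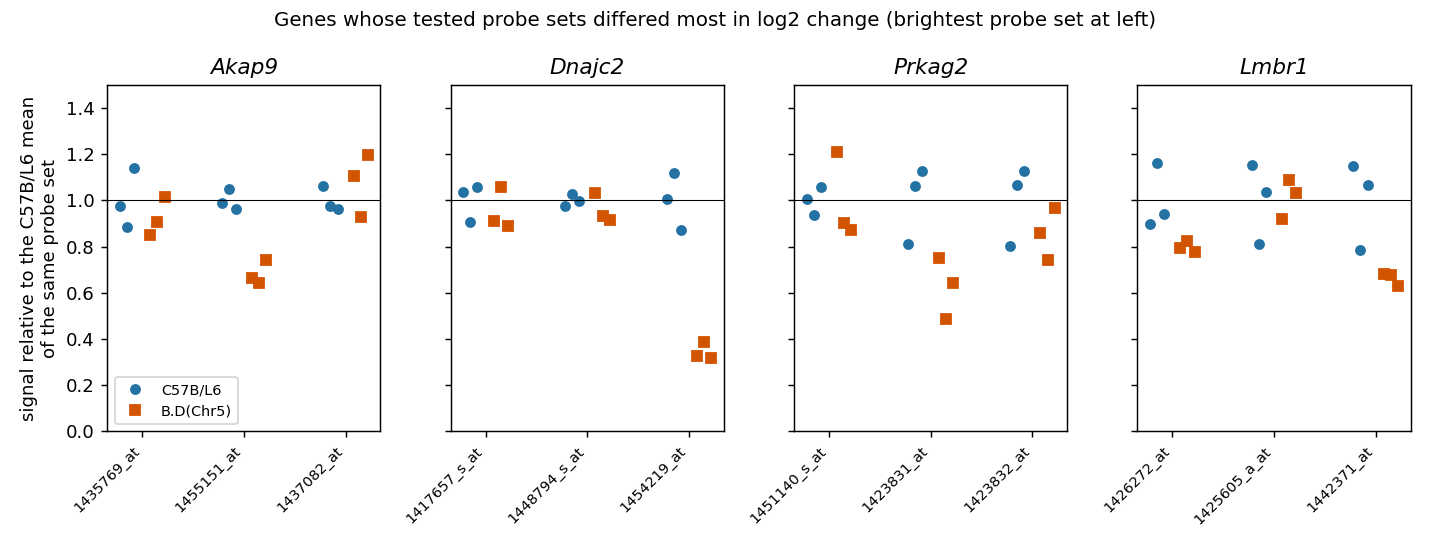
Signal of each array divided by the C57B/L6 mean of the same probe set (vertical axis, from 0) for the tested probe sets of Akap9, Dnajc2, Prkag2 and Lmbr1, the 4 genes whose log2 changes differed by over 0.5 between probe sets; circles are C57B/L6 and squares B.D(Chr5), 3 arrays each. In each gene at least 1 probe set has the strains mixed and at least 1 has them apart.

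From the centromere side, Gatad1, a reader of methylated histone H3, had log2 changes of -0.074 and -0.064. Ankib1, a ubiquitin ligase gene, had -0.032 on its brightest probe set and Krit1, which maintains endothelial junctions, had -0.070. Cyp51, the lanosterol demethylase of cholesterol synthesis, had 0.065 and 0.11. Dbf4 changed by 0.004 with a 95% interval of -0.17 to 0.18, and the mitochondrial carrier gene Slc25a40 by 0.036. The multidrug transporters Abcb1a and Abcb1b are close paralogs, so a probe set's assignment to a single one is uncertain. Abcb1b read 469, 709 and 611 in C57B/L6 and 580, 481 and 531 in B.D(Chr5), a log2 change of -0.15 with the strains overlapping. Abcb1a was too dim to be tested, with signals from 8.48 to 71.6 over its 2 probe sets. The dimmer one was lower in B.D(Chr5) without overlap, at 20.8, 37.6 and 20.6 against 12.6, 8.48 and 19.3, but exceeded the bacterial controls on only 1 array. Abcb8, a mitochondrial transporter further along, had a probe set at -0.36 without overlap and a brighter one at 0.094.

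Next came Dmtf1, a transcription factor acting on the Arf and p53 pathway, at 0.053, and the fatty acid receptor Cd36 at 0.13 and -0.051. Gnai1, an inhibitory G protein subunit, was not tested, and its 3 probe sets read from 12.5 to 61.2. Phtf2 had 0.057 and 0.097. Gsap, the gene of the gamma-secretase activating protein, had 0.42 and 0.25 on its tested probe sets, the second without overlap, while another, untested, was lower without overlap, with a log2 change of -0.70 in a fit with no filter on brightness (unadjusted p = 0.0481, limma adjusted p = 1). Fgl2, a secreted and membrane fibrinogen-like protein of myeloid cells, had 0.12 and 0.16. Armc10 had -0.061. Napepld, which makes N-acylethanolamine lipids, read 88.7, 87.0 and 75.3 against 64.2, 33.8 and 71.0, a log2 change of -0.50 with a 95% interval of -1.13 to 0.13. Psmc2, an ATPase of the proteasome, had 3 probe sets between 0.062 and 0.17, and Orc5, a subunit of the origin recognition complex, had -0.066.

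Reln, the gene of the secreted glycoprotein reelin, fell below the filter on mean signal over both strains and was not tested, but its arrays separated by strain. Its brighter probe set read 89.5, 94.1 and 162 in C57B/L6, above the bacterial controls on all 3 arrays, and 6.40, 28.6 and 27.9 in B.D(Chr5), at or below them on all 3. By mean signals this is at least 3.64-fold lower in B.D(Chr5). Such bounds, here and for Akap9, allow for the controls but not for the spread of the C57B/L6 arrays. Sequence differences under these probes were not examined. In the fit with no filter on brightness it had an unadjusted p of 0.000719 and a limma adjusted p of 0.381, so it was not called. The other Reln probe set was below the controls on every array. Of the 30 untested member probe sets, 6 exceeded the controls on all 6 arrays and 0 were called with no filter, where 2 had an unadjusted p under 0.01. The strains did not overlap in 6 of the 30, of which that of Gnai1 alone was higher in B.D(Chr5). With no filter, 20 of 114 member probe sets (17.5%) were without overlap, beside 9.65% of all.

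Srpk2, a kinase of splicing factors, had 6 tested probe sets from -0.084 to 0.26, beside the gene of the largest change. Further along, Cdk5 (0.028 on its brighter probe set), Tmub1 (0.052), Agap3 (0.19) and Rheb (-0.10), the small GTPase that activates mTORC1, had strains that overlapped. The chromatin remodelling subunit gene Smarcd3 was not tested, with signals from 7.14 to 30.4. Paxip1, a partner of Kmt2c complexes and of DNA damage repair, had 4 probe sets from -0.16 to 0.097. Insig1, which holds back cholesterol synthesis, read 753, 621 and 693 in C57B/L6 and 761, 816 and 791 in B.D(Chr5), without overlap and with a log2 change of 0.20 whose 95% interval ran from -0.048 to 0.44. The ubiquitin ligase gene Ube3c had 3 probe sets from 0.025 to 0.48, and the co-chaperone Dnajb6 had 4 from -0.28 to 0.086. Samd9l, an interferon-induced gene that restrains haematopoietic growth, lay on chromosome 6 and had a log2 change of 0.062 with a 95% interval of -0.20 to 0.33.

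By role, beside the 0.182% called and 9.38% without overlap over all tested probe sets, the called ones fell among protein folding and degradation genes (1 of 16 tested probe sets, Dnajc2, which was also the 1 of 16 without overlap) and genes outside the named roles (1 of 19, AI506816, with 7 of 19 without overlap). Among ABC transporters 0 of 3 were called and 1 of 3, of Abcb8, was without overlap. Among DNA replication and repair genes (6 probe sets) and chromatin regulators (10) there were 0 of either kind. The chromatin regulator probe sets came from only 3 genes, Gatad1, Kmt2e and Kmt2c, so they are not separate members. Their log2 changes ran from -0.15 to 0.031, with 9 of 10 negative and a median of -0.064. Lipid and energy metabolism genes had 0 of 9 called and 3 of 9 without overlap, namely those of Napepld, Insig1 and Prkag2. Signalling and scaffold genes had 0 of 21 called and 2 of 21 without overlap, of Akap9 and Ptpn12, with a median of 0.045.

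Beyond the calls, the strains' signals did not overlap in 14 of the 84 tested probe sets (16.7%), 6 higher and 8 lower in B.D(Chr5), beside 9.38% of all tested probe sets. An unadjusted limma p under 0.01 was reached by 6 of the 84 (7.14%), beside 1.29% of all. Among the upper 25% of probe sets by signal, the members' shares were 4 of 45 (8.89%) without overlap, beside 8.77% of all, and 2 of 45 (4.44%) at p under 0.01, beside 1.52% of all. AI506816, listed for its difference, is in both counts. It reached the upper 25% through its B.D(Chr5) signals, with a mean of 1912 against 38.2 in C57B/L6. Shares without it were not computed for this setting. Without AI506816 and Samd9l the counts among the upper 50% were 13 of 82 (15.9%) and 5 of 82 (6.10%). The genes behind these 82 were also chosen with earlier results of these data known, so their shares are not those of a blind list. The count at p under 0.01 fell to 3 of 84 (3.57%) without C57B/L6 replicate 2, B.D(Chr5) replicate 1 or B.D(Chr5) replicate 2, and to 4 without C57B/L6 replicate 1 or 3, with shares of all tested probe sets from 0.799% to 2.15% in those 5 fits. Each of these member counts includes AI506816. Other chromosome 5 genes lying between the first and last member, 29 with tested probe sets, had 8 of 45 without overlap (17.8%) and 7 of 45 under 0.01 (15.6%). From Dnajb6 to Lcorl these were 19 of 178 (10.7%) and 6 of 178 (3.37%), and beyond Lcorl 83 of 953 (8.71%) and 9 of 953 (0.944%). Lcorl was itself the only called gene from Dnajb6 to Lcorl (1 of 178, 0.562%, beside 0.182% of all). The border thus sits at a gene that differed in these same data, which favours lower shares beyond it. Of the 10 member probe sets of smallest p, 7 belonged to the stretch of 11 tested members from AI506816 to Galnt11, a stretch picked after the values were seen. The differences between these shares were not tested.

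**Figure D4:**
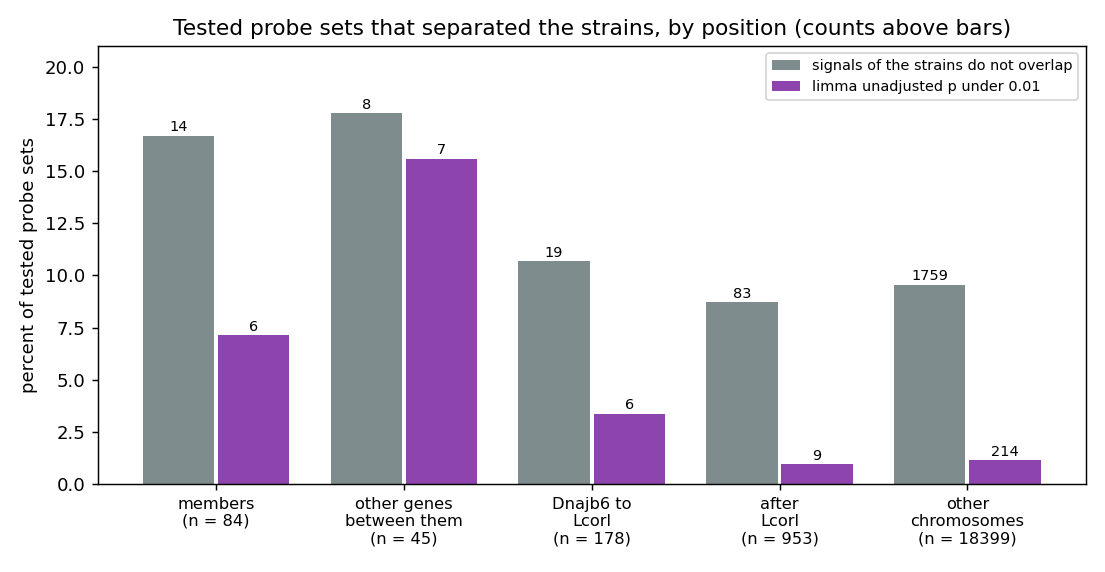
Percent of tested probe sets (vertical axis, from 0) whose strains did not overlap (grey) and whose unadjusted limma p was under 0.01 (purple), for the members, for other chromosome 5 genes grouped by position, and for other chromosomes; numbers above bars are counts. The 2 groups from the proximal interval reach 16.7% and 17.8% in grey and 7.14% and 15.6% in purple. Beyond Lcorl, a border gene that itself differed between the strains, the values are 8.71% and 0.944%.

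Of 9 listed stem and progenitor genes 8 were measured, among them Kit and Cd34, and all 8 exceeded the bacterial controls on all arrays. So did every measured gene of the erythroid, mature neutrophil, B cell, T and NK cell and megakaryocyte lists. Exceeding the controls therefore does not tell progenitors from mature cells. The summed signal of the 8 stem and progenitor genes ran from 32240 to 35635 in C57B/L6 and from 29942 to 36079 in B.D(Chr5). In B.D(Chr5) 7 of the 8 had a lower mean, with a median log2 difference of -0.14 (Meis1 -0.41, Cd27 -0.36, Flt3 -0.29) and Myb, the brightest, at 0.031. The sums for some other lists separated by strain. Those of granulocyte-monocyte progenitors (4 of 4 listed above the controls on all arrays) summed to between 44730 and 52149 in C57B/L6 and between 55075 and 76351 in B.D(Chr5). Those of mature neutrophils (3 of 4 listed) summed to between 12156 and 14842 against 16882 and 26444, and those of stroma and endothelium (4 of 5) to between 1368 and 1978 against 2083 and 2550. Within the last list the stromal genes Cxcl12 and Col1a1 had log2 differences of 0.97 and 1.5, and the endothelial genes Pecam1, Emcn and Cdh5 had 0.066, 0.12 and 0.35. The sums for erythroid, monocyte, B cell, T and NK cell and megakaryocyte genes overlapped. The median log2 difference was 0.68 for B cell genes (Ms4a1 0.99) and -0.44 for T and NK cell genes, where Cd3d had -0.80, Thy1 -0.64, Cd3e -0.24 and the brightest, Nkg7, 0.14. The macrophage gene C1qa was below the controls on every array. The part of these cells in the members' values was not tested.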

How the data were processed

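Lineage negative bone marrow RNA was measured on 6 arrays, 3 per strain. The deposited intensity values are MAS5 probe set signals on a linear scale, per the submitters' processing notes, with version and settings not given in the sources used here, and each array had a trimmed mean of 500. Of 45101 probe sets, 64 controls were set aside. Symbols were updated through Entrez identifiers to RefSeq on GRCm38.p6, which also gave gene order.

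Values were turned into log2(signal + 16), and the upper 50% of probe sets by mean signal were tested with limma 3.58.1 (R 4.3.3; lmFit, eBayes with trend, two-sided), adjusting over all 22518 by Benjamini-Hochberg at 0.05. With 3 arrays per strain, the number of arrays limits the precision. Background was the 95th percentile of 27 bacterial controls on each array. A fold change was given as a bound where the dimmer strain was nowhere above it, from the brighter strain's mean log2 signal against those percentiles. No 2 arrays were identical (0 pairs).

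The members and gene lists were chosen with earlier results of these data known. Named were called probe sets, the 10 of smallest p, members whose probe sets differed by over 1, and otherwise the brightest probe set. Alternatives covered pseudocounts of 1 and 64, no filter or the upper 25%, quantile normalization, median centring, eBayes without trend, the replicate block, leaving out probe sets ending in _x_at or _s_at, and each array left out. The counts without overlap and at p under 0.01 were added after the data were seen.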

Additional observations from a re-analysis of the deposited data

How the results depend on the processing

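AI506816, which was listed for its difference, kept its call in all 15 alternatives run. The count of called member probe sets was 2 with other pseudocounts, quantile normalization, median centring, eBayes without trend or without _x_at and _s_at probe sets. It was 1 with no filter, with the upper 25% tested (where the Dnajc2 probe set was not among those tested) and with the replicate block, with 0 lower calls in each. With an array left out it ran from 1 to 2, and lower calls from 0 to 1. Dnajc2 kept its direction in all 14 fits that tested it, with log2 changes from -1.52 to -1.01, and lost its call with no filter (adjusted p = 0.108), with the replicate block (0.135) and in 5 of the 6 fits without an array. Same-numbered arrays deviated from their strain means with correlations of -0.11, -0.20 and 0.19 over probe sets, so the numbers were not taken as pairs. The block lowered the members' count at an unadjusted p under 0.01 from 6 to 3, with AI506816 in both counts. The members' median log2 change ran from -0.017 to 0.028 with an array left out, the lowest being without B.D(Chr5) replicate 3. In the upper 25%, 4 of 45 member probe sets (8.89%) were without overlap, level with the 8.77% of all, and 2 of 45 (4.44%) had p under 0.01, with AI506816 in both counts. The cause of these changes was not tested. Signals near the bacterial controls limit Reln, Abcb1a, Gnai1 and Smarcd3.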

Other observations

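Several genes that lie between the members on chromosome 5 also separated the strains on every array, and are given as values only. Pus7, between AI506816 and Rint1 and the gene of a pseudouridine synthase, had a log2 change of 0.86 ± 0.11 (SE) and was the 1 called neighbour (limma adjusted p = 0.0182). Atg9b, a lipid scramblase of autophagy, had a log2 change of 0.93 (limma adjusted p = 0.152). Klhl7, a substrate adaptor of a ubiquitin ligase, had -0.57 (adjusted p = 0.153) and Abcf2, an ATP-binding protein without membrane domains, had -0.62 (adjusted p = 0.208). The transcripts 2700038G22Rik and 5031425E22Rik had -0.64 (adjusted p = 0.150) and, on 2 probe sets, -1.01 and -0.47. These were chosen for an unadjusted p under 0.01, after their values were seen.

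The AI506816 promoter window lies among CpG-rich starts, with more CpG dinucleotides than 75.2% of all windows. Its 21 do not stand out among the members, whose windows ran from 1 (Samd9l) to 56 (Kmt2c), with 47 for Reln.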
